A study of Arabidopsis thaliana with 16 samples.

Results

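The data described here are the Polycomb marks on the genes around the 5 centromeres of *Arabidopsis thaliana*. They comprise every annotated nuclear gene of the TAIR10 genome that lay wholly within a window of chromosome 1 from 11.5 to 17.7 Mb, chromosome 2 from 1.1 to 7.2 Mb, chromosome 3 from 10.3 to 17.3 Mb, chromosome 4 from 1.5 to 6.3 Mb or chromosome 5 from 9.0 to 16.0 Mb. Position alone chose the genes, and 4360 of 33056 nuclear genes qualified. A further 28690 genes lay on the chromosome arms and 6 crossed a window edge. The study mapped H2Aub, monoubiquitinated histone H2A, and H3K27me3, trimethylated lysine 27 of histone H3, by ChIP-seq in whole seedlings 12 days after germination. It compared the wild-type ecotype Col-0 with *ubp5*, 1 deletion line made with CRISPR/Cas9 and 2 guide RNAs in the Col-0 background, in which the gene of the ubiquitin protease UBP5 is partly removed. UBP5 itself lies on an arm of chromosome 2, and peak lists do not report on its deletion. Per genotype there were 3 peak lists for H2Aub and 2 for H3K27me3, each from a separate biological replicate, and the 6 input libraries were not analysed here. Whole seedlings mix many cell types, so a peak present in few cells and a weak peak in all cells cannot be told apart.

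H2Aub is written by Polycomb repressive complex 1 and removed by ubiquitin proteases, and H3K27me3 is written by Polycomb repressive complex 2. In plants both marks lie mostly over genes, H3K27me3 as broad domains on silent developmental, defence and reproductive genes, and H2Aub also on many genes without H3K27me3. Pericentromeres are the opposite kind of chromatin, rich in transposons, DNA methylation and methylated lysine 9 of histone H3, with genes scattered between repeats. The windows spanned 31.1 Mb, 26.1% of the nuclear genome, and held 140 genes per Mb against 326 on the arms. Genes took up 23.1% of their sequence, against 66.9% on the arms. Of the 4360 genes, 3380 were protein-coding, 621 were long non-coding or antisense RNAs, 65 microRNAs and 62 tRNAs. The annotation also held 3777 features of its pseudogene class in the windows, a class that in TAIR10 also takes in transposon genes, against 1066 on the arms, and these were counted separately.

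The data are peak positions, so the start regions of 4 genes that carried H2Aub peaks only or mainly in *ubp5* are shown first, to let the peak edges be read against the sequence. Each runs from 250 bases before to 50 bases after the annotated start, 5′ to 3′ on the gene's strand in TAIR10, and capitals mark bases under an H2Aub peak in at least 2 of the 3 *ubp5* libraries.
EDA35 (plus strand, chr4:2756913-2757212): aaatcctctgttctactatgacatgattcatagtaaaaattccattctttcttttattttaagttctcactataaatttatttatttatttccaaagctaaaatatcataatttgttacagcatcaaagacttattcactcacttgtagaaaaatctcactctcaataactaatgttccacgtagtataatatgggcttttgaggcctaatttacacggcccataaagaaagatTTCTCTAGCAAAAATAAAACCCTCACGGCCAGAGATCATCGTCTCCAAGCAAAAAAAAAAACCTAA
AT5G38590 (minus strand, chr5:15453879-15454178): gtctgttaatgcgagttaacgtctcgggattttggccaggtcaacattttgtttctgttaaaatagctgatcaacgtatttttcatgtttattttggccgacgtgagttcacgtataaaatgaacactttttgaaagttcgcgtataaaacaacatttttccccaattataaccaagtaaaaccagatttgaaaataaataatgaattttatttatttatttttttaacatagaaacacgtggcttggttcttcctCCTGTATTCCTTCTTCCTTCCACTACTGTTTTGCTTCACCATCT
MCM9 (plus strand, chr2:5908850-5909149): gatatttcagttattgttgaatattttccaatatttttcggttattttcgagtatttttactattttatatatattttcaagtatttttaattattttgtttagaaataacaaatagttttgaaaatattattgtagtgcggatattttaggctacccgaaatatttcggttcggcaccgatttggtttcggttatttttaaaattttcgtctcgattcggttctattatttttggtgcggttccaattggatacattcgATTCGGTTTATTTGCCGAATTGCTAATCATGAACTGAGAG
AT5G37290 (plus strand, chr5:14762091-14762390): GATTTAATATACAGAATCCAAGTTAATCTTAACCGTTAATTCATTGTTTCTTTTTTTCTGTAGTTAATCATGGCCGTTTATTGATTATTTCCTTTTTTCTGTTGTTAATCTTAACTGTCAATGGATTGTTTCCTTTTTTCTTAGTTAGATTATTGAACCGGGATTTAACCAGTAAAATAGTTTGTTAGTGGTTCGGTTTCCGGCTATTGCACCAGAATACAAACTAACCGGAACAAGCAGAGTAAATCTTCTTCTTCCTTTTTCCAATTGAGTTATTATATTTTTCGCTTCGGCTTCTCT
In EDA35, AT5G38590 and MCM9 the capitals began close to the annotated start and covered 66, 44 and 40 of the 300 bases. In AT5G37290 all 300 bases were under a peak in every *ubp5* library. No base of these 4 windows lay under an H2Aub peak in any Col-0 library. Their GC content was between 28.7% and 33.3%. None held the telobox AAACCCTA or the repeat GAGAGAGA on either strand, motifs that were searched as letters only and do not overlap. Over the same window of all 27438 protein-coding genes, 6.22% held the telobox and 8.38% the GAGA repeat. Among the 3380 protein-coding pericentromeric genes the shares were 6.24% and 7.43%. The telobox share was 9.90% for the 626 that carried H3K27me3 in both genotypes, and 4.90% for the 817 with H2Aub in both genotypes.

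H2Aub was sparser on pericentromeric genes than on arm genes in every library. The value used is the share of summed gene length that lay under a peak, with peaks of a score over 30 (10 times the −log10 q of the peak caller). In Col-0 it was 8.37%, 10.9% and 16.0% in the windows against 14.9%, 19.8% and 26.5% on the arms. In *ubp5* it was 17.4%, 7.40% and 21.6% against 29.3%, 15.3% and 33.9%. All 6 libraries were lower in the windows, by a mean of 0.81 on the log2 scale, and pericentromere-to-arm ratios lay between 0.483 and 0.636 (exact sign-flip test over 6 libraries, two-sided p = 0.0312, the smallest it can give, adjusted p = 0.188 over 12 tests). The windows and arms overlapped between libraries, since the 6 H2Aub lists covered between 10.9 and 27.8 Mb of the genome, but no single library reversed the order. Counting genes instead of bases gave the same direction. A peak overlapped 16.6%, 23.5% and 32.2% of the pericentromeric genes in Col-0, with 36.9%, 17.2% and 45.7% in *ubp5*, against 32.1% to 57.4% and 38.4% to 76.1% on the arms (mean difference −1.57 log2 odds, exact p = 0.0312, adjusted p = 0.188).

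H3K27me3 did not follow H2Aub. It covered 14.4% and 16.0% of pericentromeric gene length in Col-0, with 14.8% and 14.7% in *ubp5*, against 11.7%, 13.2%, 11.8% and 12.2% on the arms. All 4 libraries were higher in the windows, with ratios from 1.2 to 1.26 and a mean log2 difference of 0.29 (exact sign-flip test, p = 0.125, the smallest that 4 libraries allow, adjusted p = 0.3). By number of genes the regions were close, with 20.5%, 23.1%, 21.9% and 22.0% of pericentromeric genes overlapping a peak and 20.0%, 22.6%, 20.4% and 21.3% of arm genes (0.069 log2 odds, exact p = 0.125, adjusted p = 0.3). The windows held 15.2% to 15.8% of all H3K27me3 peaks and 7.48% to 10.5% of all H2Aub peaks.

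**Figure D1:**
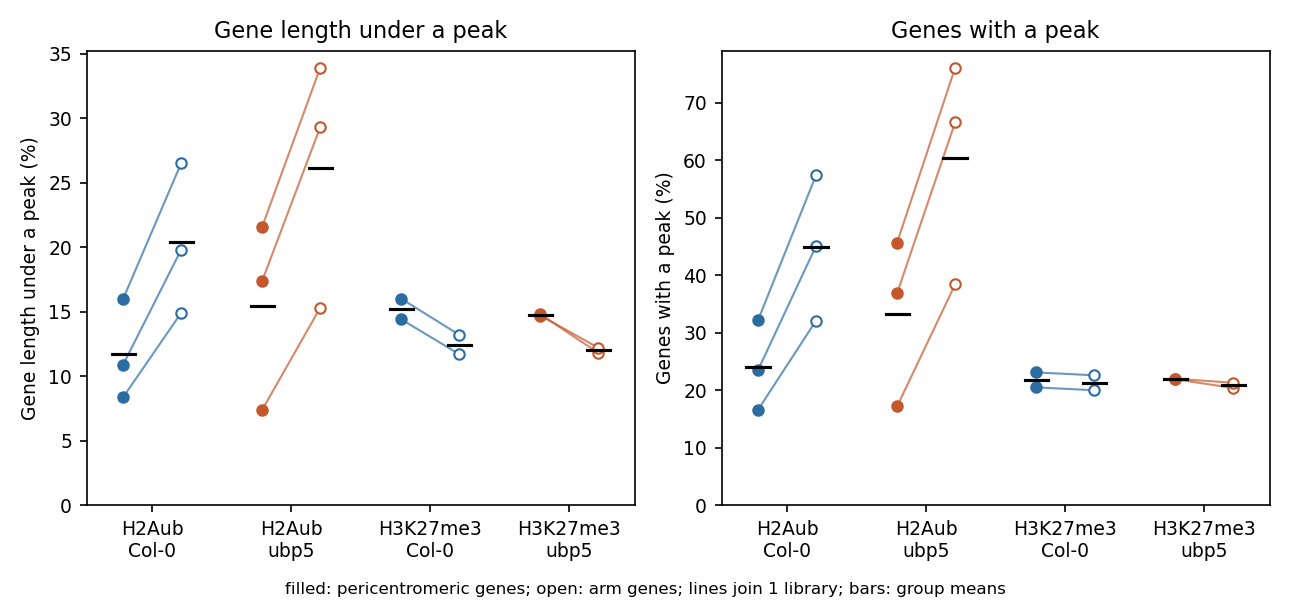
Share of gene length under a peak (left, %) and share of genes overlapping a peak (right, %) in each library, with pericentromeric genes as filled and arm genes as open points, lines joining the values of 1 library and bars at group means. H2Aub lines climb from the windows to the arms in all 6 libraries, and H3K27me3 lines descend in gene length in all 4 and are nearly flat in gene number.

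The windows were not uniform, and the higher H3K27me3 share was found in their outer part. In the outer 1 Mb, 2400 genes had H3K27me3 over 18.3% ± 1.43 of their length in Col-0 (mean ± SD, n = 2) and 17.8% in both *ubp5* libraries, against 14.9% ± 1.12 and 14.7% ± 0.229 in the 1 Mb just outside. The 1256 genes at 1 to 2 Mb had 13.3% ± 0.924 and 12.6% ± 0.137. The 704 genes beyond 2 Mb had 6.63% ± 0.631 and 6.81% ± 0.238, below the arms in all 4 libraries (log2 −0.86, exact p = 0.125, adjusted p = 0.132 over 20 comparisons added after the values were seen). Beyond 2 Mb the fall did not continue, since the 418 genes at 2 to 2.5 Mb had 4.84% ± 0.604 in Col-0 and 5.33% ± 0.258 in *ubp5*, and the 286 genes further in 9.13% ± 0.667 and 8.88% ± 0.21. The outer genes were above the 1 Mb outside in all 4 libraries (log2 0.28, exact p = 0.125, adjusted p = 0.132). H2Aub had no such rim. Its mean share in Col-0 was 17.3% ± 5.54 in the 1 Mb outside, 13.6% ± 4.63 in the outer 1 Mb, 10.4% ± 3.61 at 1 to 2 Mb and 7.40% ± 1.55 beyond 2 Mb (n = 3). In *ubp5* the same zones had 22.6% ± 9.85, 18.1% ± 8.56, 13.4% ± 6.46 and 8.71% ± 3.76. Every H2Aub library was lower beyond 2 Mb than in the outer 1 Mb (log2 −0.93, exact p = 0.0312, adjusted p = 0.0567). The share of genes without a peak of either mark in any of the 10 libraries went from 20.7% in the 1 Mb outside to 31.3%, 48.4% and 72.4% across the 3 zones inward. Sequence uniqueness also changes across the windows. Among genes of which at least 90% is unique, a subset added after the values were seen, H3K27me3 in Col-0 covered 14.8% ± 1.14 in the 1 Mb outside, then 18.2% ± 1.43, 13.9% ± 0.968 and 5.34% ± 1.04 in the 3 zones inward. H2Aub there covered 17.4% ± 5.52, then 13.7% ± 4.68, 10.7% ± 3.74 and 7.42% ± 2.36.

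**Figure D2:**
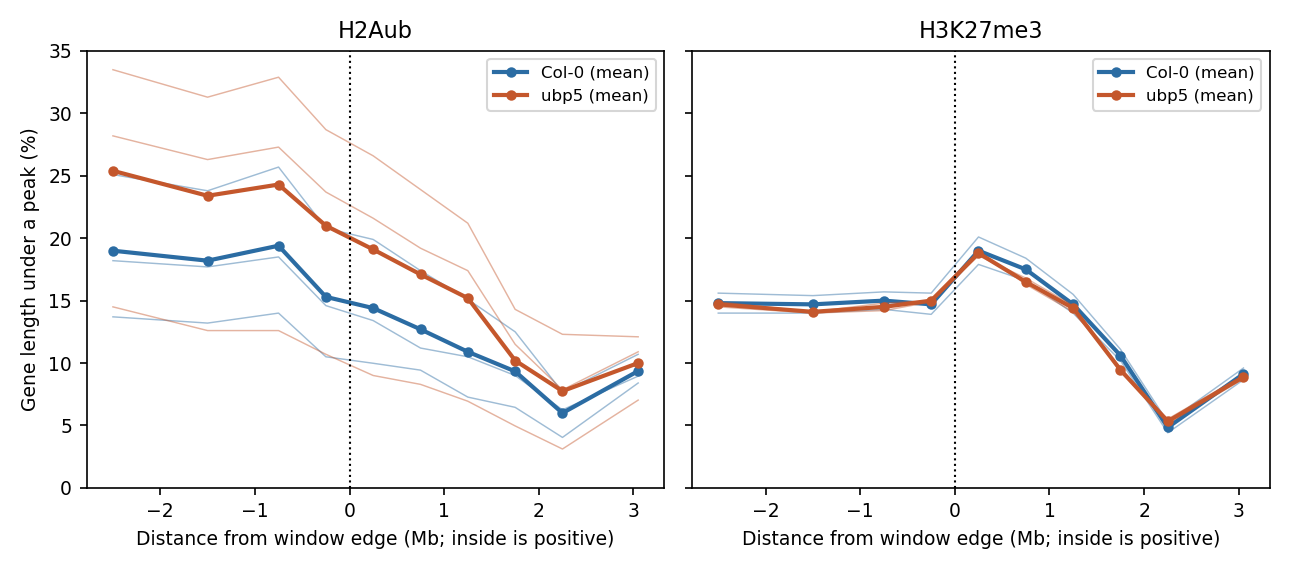
Share of gene length under a peak (%) against distance from the nearer window edge (Mb, positive inside the windows), for H2Aub (left) and H3K27me3 (right), with thick lines as genotype means and thin lines as single libraries. H3K27me3 peaks at 19% in Col-0 in the first 0.5 Mb inside and is 4.84% at 2 to 2.5 Mb, and H2Aub goes from 15.3% just outside to 5.99% there. In the innermost stretch, with 286 genes, both are higher again, at 9.13% for H3K27me3 and 9.36% for H2Aub. That stretch includes AT2G08986, and its protein-coding genes alone had 6.99% and 9.48%.

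Chromosomes differed in this pattern. On chromosome 5, with 1033 of the genes, H3K27me3 covered 18.0% ± 1.35 of pericentromeric gene length in Col-0 against 12.9% ± 1.00 on the arms (n = 2), and on chromosome 3, with 989, it covered 15.2% ± 1.43 against 10.7% ± 0.921. On chromosome 1, with 867 genes, the values were 14.5% ± 1.18 and 11.5% ± 1.18. On chromosome 4, with 552, they were nearly equal, 14.3% ± 0.716 and 13.9% ± 0.824. Chromosome 2, with 919 genes, had the opposite order, 12.9% ± 0.936 against 14.1% ± 1.08. Of those 919, 139 are largely identical to an organelle genome, as described below, and had no peak in any library. Counting them lowers the window shares of chromosome 2 for both marks, and shares without them were not computed by chromosome. H2Aub was lower in the windows of all 5 chromosomes, from 9.32% ± 3.44 against 19.6% ± 5.90 on chromosome 3 to 13.8% ± 4.31 against 20.9% ± 5.88 on chromosome 5 (Col-0, n = 3). Differences between chromosomes were not tested.

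Chromosome 2 holds an insertion of mitochondrial DNA. In the windows 250127 bp recur in an organelle genome, nearly all of it here, and 139 pericentromeric genes between positions 3239693 and 3505260 have at least 50% of their length identical to one. None of these 139 genes, and none of the 45 pseudogene features of the same kind, carried a peak of either mark in any of the 10 libraries. As an example, 100 bases from the middle of ABCI5 (AT2G07771) are shown, because the same letters occur at positions 308633 to 308732 of the mitochondrial genome on its minus strand.
ABCI5 (plus strand of the chromosome, chr2:3240029-3240128): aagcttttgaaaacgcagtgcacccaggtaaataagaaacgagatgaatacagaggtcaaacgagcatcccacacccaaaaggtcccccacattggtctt
Reads of such sequence have more than 1 place in the genome. The methods of the study state that uniquely mapped reads were kept, while an alignment command given with them also allows reads with many places, and which of these made the lists is not settled here. An absent peak in such sequence therefore cannot be read as an absent mark. Without these genes the H2Aub and H3K27me3 differences between windows and arms, over all chromosomes together, kept their directions. A low unique share did not always go with an absent peak. Of the 60 pericentromeric genes of at least 500 bp with no unique 100 bp, 14 had a peak in some library, as had 80 of the 93 such genes on the arms.

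Just beyond the insertion lay the gene with the greatest mean H2Aub-covered length among those with a peak in every H2Aub library. AT2G08986, an uncharacterised gene of 8403 bp at 3618058 to 3626460 on chromosome 2, had H3K27me3 over all 8403 bp in each of the 4 libraries. H2Aub covered 8213, 8143 and 8145 bp in Col-0, with 7729, 8157 and 5900 bp in *ubp5*. Of its length 61.9% is unique. In its 0.5 Mb bin of 28 genes the covered share was 35.7% for H3K27me3 and 38.4% for H2Aub in Col-0. The bin before it, with 156 genes and the insertion, had 0.117% and 0%. No H3K27me3 peak touched a gene in the bins of chromosome 1 from 14.5 to 15 Mb (5 genes), chromosome 3 from 12.8 to 13.3 Mb (30), chromosome 4 from 3.5 to 4.0 Mb (12) or chromosome 5 from 12.0 to 12.5 Mb (14) in either genotype.

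**Figure D3:**
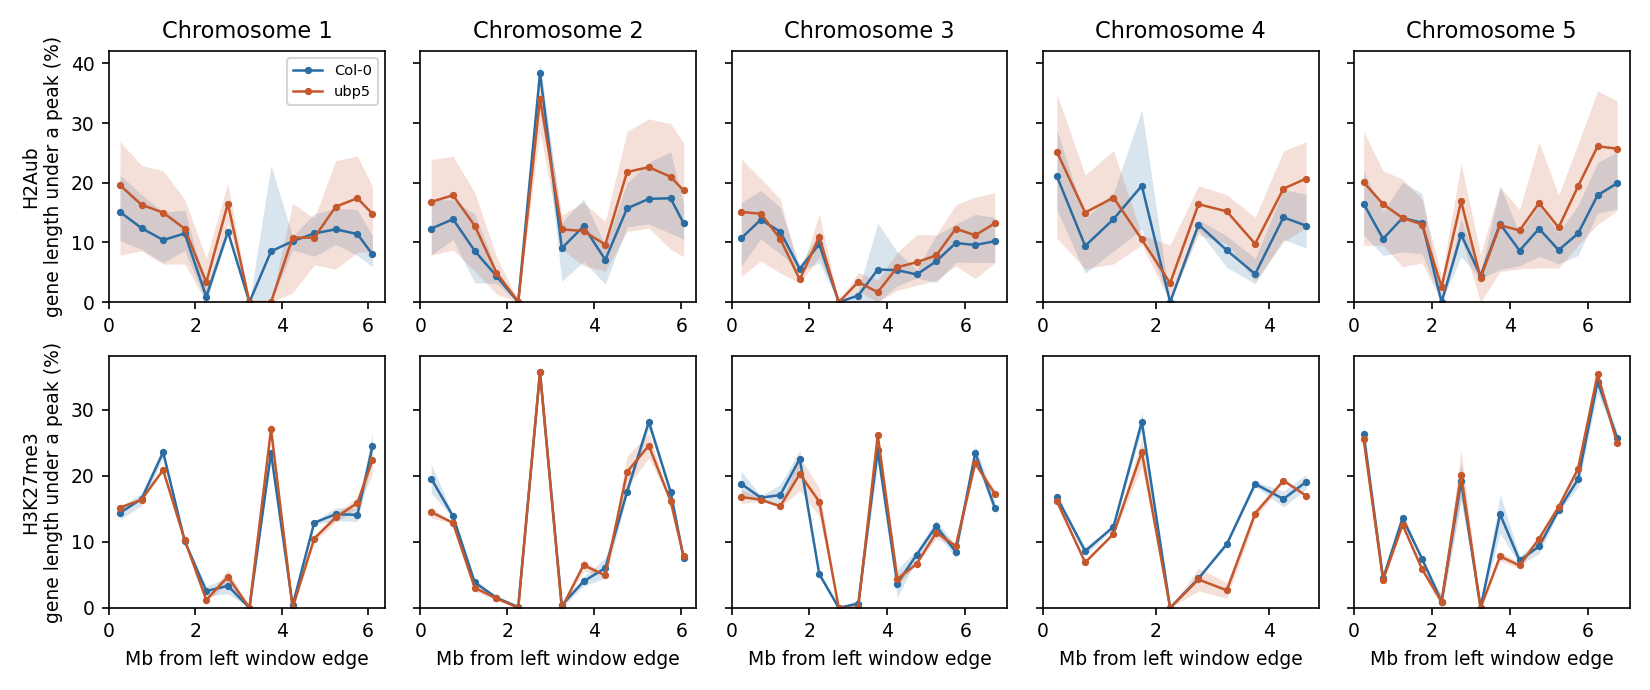
Share of gene length under a peak (%) in bins of 0.5 Mb along each window (distance from its left edge, Mb), for H2Aub (top) and H3K27me3 (bottom), with lines as genotype means and bands as the range of the libraries. Bins at 0 and high bins of few genes lie side by side in the middle of the windows, such as 28.2% for H3K27me3 in Col-0 over 9 genes on chromosome 4 next to 0% over 12, and the highest H2Aub bin, 38.4% in Col-0 on chromosome 2, holds AT2G08986.

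The direction of the difference between windows and arms changed with gene length for H3K27me3 and not for H2Aub. Pericentromeric protein-coding genes were shorter, with a median of 1712 bp against 2120 bp. Among those under 1 kb, 964 in the windows, H3K27me3 covered 22.6% ± 1.70 of the length in Col-0 against 30.8% ± 2.91 on the arms, lower in all 4 libraries (log2 −0.41, exact p = 0.125, adjusted p = 0.132). Among the 332 of 4 kb and over it covered 10.2% ± 0.999 against 4.86% ± 0.481, higher in all 4 (log2 0.98, exact p = 0.125, adjusted p = 0.132). The classes between lay closer, 23.3% ± 1.78 against 22.7% ± 1.83 at 1 to 2 kb and 13.0% ± 0.876 against 11% ± 0.818 at 2 to 4 kb. H2Aub was lower in the windows in every class, from 16.0% ± 4.06 against 39.4% ± 9.19 under 1 kb to 5.73% ± 2.19 against 8.07% ± 3.11 at 4 kb and over. The length classes were added after the values were seen.

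Pseudogene features inside the windows were nearly free of peaks of both marks. H2Aub covered 1.25% ± 0.298 of their length in Col-0, with 1.39% ± 0.680 in *ubp5*, and H3K27me3 2.29% ± 0.450 and 2.84% ± 0.755. On the arms the same kind of feature had 10.9% ± 2.84 and 11.4% ± 5.47 for H2Aub, and 14.5% ± 0.389 and 15.6% ± 0.608 for H3K27me3. In each of the 6 H2Aub libraries the windows' pseudogene features were below the windows' genes, with a mean log2 difference of −3.35 (exact p = 0.0312, adjusted p = 0.0567). For H3K27me3 the mean log2 difference was −2.57, below in all 4 (exact p = 0.125, adjusted p = 0.132). With these features counted as genes, the H3K27me3 comparison of windows and arms reversed to −0.57. Of the windows' pseudogene features, 79.6% are at least 90% unique, against 90.5% of the windows' genes. An absent peak on them therefore cannot always be read as an absent mark.

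**Figure D4:**
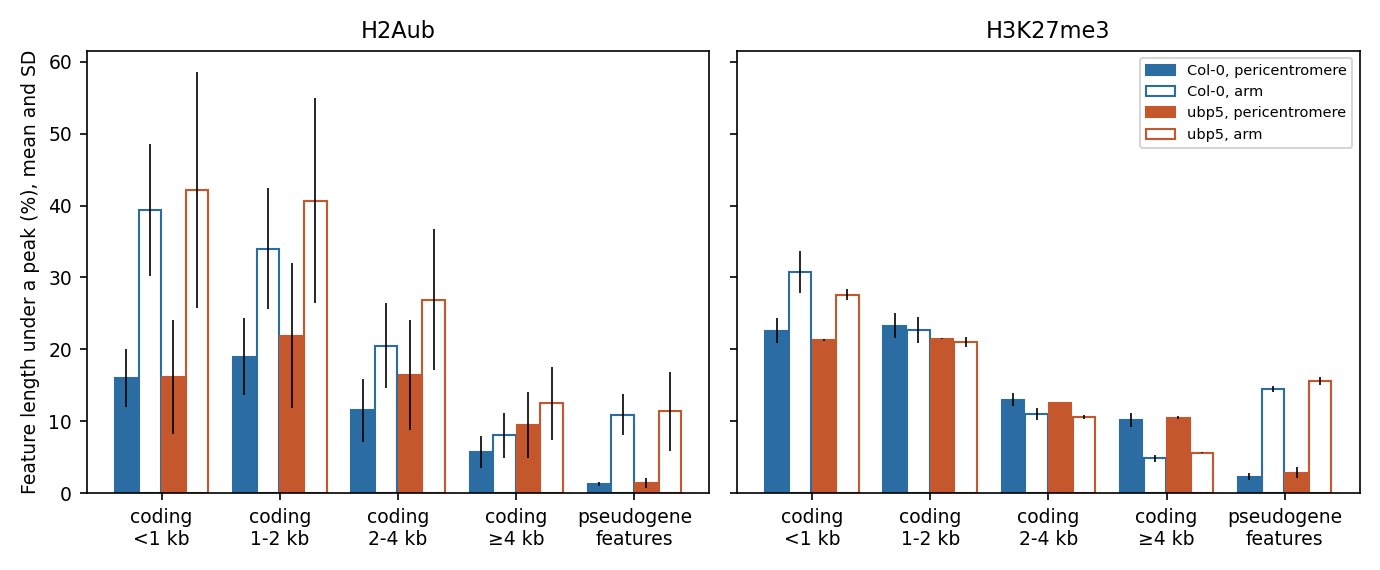
Share of feature length under a peak (%, mean and SD over 3 H2Aub or 2 H3K27me3 libraries per genotype) for protein-coding genes in 4 length classes and for pseudogene features, with filled bars for the windows and open bars for the arms. H3K27me3 is lower in the windows under 1 kb and higher at 4 kb and over, and H2Aub is lower in every class.

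Peaks themselves had other shapes in the windows. The median H2Aub peak was 694 to 905 bp wide there and narrower than on the arms in all 6 libraries (log2 −0.38, exact p = 0.0312, adjusted p = 0.0567). For H3K27me3 the medians were 1646 to 1994 bp and differed little from the arms (log2 −0.04, exact p = 0.375). Between 85.1% and 90.6% of the windows' H2Aub peaks touched a gene, and 79.0% to 79.7% of the H3K27me3 peaks. Within protein-coding genes of at least 2 kb, 1397 in the windows, H2Aub lay at the start. The first 500 bp were covered to 18.6% ± 7.93 in Col-0, with 36.7% ± 17.5 in *ubp5*, and the last 500 bp to 5.78% ± 2.37 and 5.29% ± 3.22. The 500 bp upstream had 5.80% ± 2.21 and 9.17% ± 4.90. The same starts on the arms had 31.8% ± 11.6 and 53.1% ± 20.1. H3K27me3 was more even, with 13.4% ± 1.2 at the start and 10.5% ± 0.983 at the end in Col-0.

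The longest H3K27me3 peak in the windows held no gene. It ran from 3965163 to 4011680 on chromosome 4, 46518 bp over 5 pseudogene features of which 0% to 76.0% is unique at 100 bp. H3K27me3 covered 100% and 93.7% of it in Col-0, with 97.1% and 96.7% in *ubp5*. H2Aub covered 96.4%, 68.3% and 63.8% in Col-0, with 0%, 22.3% and 0% in *ubp5*, so the H2Aub values of the genotypes did not overlap. This domain was picked for its length after the values were seen, and no test was run on it.

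Genes were next called marked where a peak overlapped at least 1 bp in at least 2 libraries of a genotype. H2Aub marked 1040 pericentromeric genes in Col-0, 23.9% of them, against 42.5% of all nuclear genes, and 1595 in *ubp5*, 36.6%, against 62.3%. H3K27me3 marked 866, 19.9%, in Col-0 against 19.7% of all genes, and 880, 20.2%, in *ubp5* against 19.6%. Thus the windows were below the background for H2Aub and at it for H3K27me3. No peak of either mark in any library overlapped 1869 of the pericentromeric genes, 42.9%, against 20.4% of all genes.

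Both marks met on fewer genes in the windows. In Col-0, 433 pericentromeric genes, 9.93%, carried both marks against 12.7% of all genes, and in *ubp5* 451, 10.3%, against 13.7%. Those 433 were 50% of the H3K27me3-marked and 41.6% of the H2Aub-marked pericentromeric genes, whereas on the arms the shares were 66.6% and 28.9%. In *ubp5* they were 51.2% and 28.3% in the windows and 72.7% and 21.4% on the arms. Library by library, an H2Aub peak overlapped 40.8%, 48.4% and 60.4% of the H3K27me3-marked pericentromeric genes in Col-0, with 51.6%, 26.0% and 65.1% in *ubp5*. The arms had 57.3%, 64.9%, 76.0%, 72.9%, 45.1% and 83.1%, higher in all 6 (−1.16 log2 odds, exact p = 0.0312, adjusted p = 0.0567). Pericentromeric genes without H3K27me3 were also lower, at 17.7% ± 7.31 in Col-0, with 29.6% ± 13.2 in *ubp5* against 39.7% ± 13.5 and 58.8% ± 19.6 (−1.78 log2 odds, exact p = 0.0312, adjusted p = 0.0567).

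The genotypes did not separate in the share of pericentromeric gene length under an H2Aub peak. Such a share is an extent within each library and does not measure the amount of the mark. By western blot the study found more bulk H2Aub in *ubp5* seedlings. The pericentromeric share of gene length was 11.8% ± 3.90 in Col-0, with 15.5% ± 7.28 in *ubp5* (log2 0.31, exact permutation test of 3 against 3 libraries, p = 0.7, adjusted p = 1, where 0.1 is the smallest possible). The second *ubp5* library was the lowest of all 6 and the third the highest. In the study's reported read counts, the second also had the fewest uniquely mapped H2Aub reads of the 6 and the third the most. The effect of depth was not tested. The pericentromere-to-arm ratio was alike in the lists as filtered, 0.572 and 0.567 (log2 −0.012, p = 0.9, exact). With the lists matched in covered length the log2 difference was −0.077 (exact permutation test, p = 0.1 before adjustment, the smallest possible). In numbers of genes, the difference between windows and arms in log2 odds came to −1.24, −1.42 and −1.51 for the Col-0 libraries. For *ubp5* it came to −1.78, −1.58 and −1.92, without overlap (difference −0.37, exact p = 0.1, the smallest possible, adjusted p = 0.3). At matched covered length this difference between genotypes was −0.19 (exact permutation test, p = 0.1 before adjustment). H3K27me3 shares were 15.2% ± 1.17 and 14.8% ± 0.0715 (log2 −0.041, exact p = 1 for 2 against 2 libraries, where 0.333 is the smallest possible), and the share of genes with a peak differed by 0.019 log2 odds (exact p = 1).

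H2Aub marked 918 pericentromeric genes in both genotypes, 21.1% against 39.5% of all genes. Only in *ubp5* it marked 677, 15.5% against 22.8%, and only in Col-0 122, 2.80% against 3.03%. This imbalance moved with how much each list called and with which libraries were used. With all 6 lists reduced to the covered length of the shortest, the genes marked in a single genotype numbered 257 for *ubp5* and 240 for Col-0. Leaving out a library also changed the rule, since its genotype then needed a peak in both remaining libraries. Without the first *ubp5* library the counts were 214 and 503, with 537 in both genotypes, and without the third 208 and 504, with 536 in both. Without the second or the third Col-0 library, 51 or 46 genes were on the Col-0 side. A stricter count asked for a peak in every library of one genotype and none of the other. It held for 121 genes towards *ubp5*, 2.78% against 4.13% of all genes, and for 7 towards Col-0, 0.161% against 0.203%. Among the 918 genes, the covered length was greater in every *ubp5* library than in any Col-0 library for 93, 10.1% against 12.7% over all genes, and smaller for 60, 6.54% against 6.76%.

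H3K27me3 was seen in only 1 genotype on few pericentromeric genes. It marked 748 in both genotypes, 17.2% against 16.7% of all genes, 132 only in *ubp5*, 3.03% against 2.84%, and 118 only in Col-0, 2.71% against 2.96%. The last count was 222 without the first Col-0 library and 78 without the first *ubp5* library. In these counts the single library left in that genotype was enough to mark a gene, a looser rule. The strict count gave 89 towards *ubp5*, 2.04% against 1.94%, and 54 towards Col-0, 1.24% against 1.78%. Of the 748, 36 were longer in both *ubp5* libraries, 4.81% against 5.12%, and 155 shorter, 20.7% against 28.0%. Neither mark in Col-0 and both in *ubp5* was found for 31 genes, 0.711% against 0.744%. All these shares lay near or below the background.

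The genes with the strict H2Aub pattern towards *ubp5* were led in length by 5 that had 0 bp in all 3 Col-0 libraries. EDA35, named for embryo sac development arrest, had 1423, 949 and 1423 bp in *ubp5* out of a gene of 1423 bp. APR1, an enzyme of sulfate assimilation, had 1088, 1180 and 1438 bp. PCL1, also known as LUX, a transcription factor of the circadian clock, had 1280, 1050 and 1478 bp near the right edge of the chromosome 3 window. In lists of matched length EDA35 and APR1 kept a peak in all 3 *ubp5* libraries and PCL1 in 2. AT5G37290, an ARM repeat protein, had 1769, 1431 and 2070 bp, and AT5G37890, a protein with RING/U-box and TRAF-like domains, 2059, 1413 and 1375 bp. At matched length both kept a peak in 1 *ubp5* library.

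Towards Col-0 the strict H2Aub genes included MYC2, the transcription factor of jasmonate signalling. It had 1520, 1479 and 1567 bp under peaks in Col-0, 0 bp in all *ubp5* libraries and no H3K27me3 in any library. ADT4, an arogenate dehydratase of phenylalanine synthesis, had 1200, 1289 and 1311 bp and then 0. MYB110, a MYB transcription factor, had 748, 656 and 1108 bp, and AT3G46600, a GRAS family transcription factor, 592, 879 and 1225 bp. AT5G38100, a predicted methyltransferase, had 1367, 578 and 597 bp of H2Aub in Col-0 and none in *ubp5*, while its H3K27me3 stood at 1208 and 1209 bp in Col-0, with 1232 and 1140 bp in *ubp5*. At matched length ADT4 kept its peak in 2 of 3 Col-0 libraries and MYC2, MYB110, AT3G46600 and AT5G38100 in 1 each. These patterns chose the genes, so no test was run on them.

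Of the genes that took up both marks in *ubp5*, MCM9 had the most H3K27me3. It is a relative of the replicative helicase subunits, 5275 bp long at 5909100 to 5914374 on chromosome 2. H3K27me3 lay over 5121 and 3476 bp in the *ubp5* libraries against 0 bp in each Col-0 library. Its H2Aub spanned 4266, 928 and 5265 bp in *ubp5* and 0, 0 and 424 bp in Col-0. The whole of AT5G37290 was under H3K27me3 in both *ubp5* libraries, 2070 bp, and 0 bp in Col-0. AT5G38590, an F-box protein of 2019 bp, was wholly under H3K27me3 in each *ubp5* library, from 0 bp in Col-0. H2Aub over it was 915, 805 and 979 bp, from 0, and it kept its H2Aub peaks at matched length in all 3 *ubp5* libraries. SOS2, the protein kinase of salt tolerance, had 3081 and 2958 bp of H3K27me3 in *ubp5*, none in Col-0, and H2Aub of 742, 0 and 843 bp. AT1G44020, of the Cys/His-rich C1 domain family, had 2683 and 2453 bp of H3K27me3 and 1971, 0 and 1083 bp of H2Aub. At matched length SOS2 and AT1G44020 had no H2Aub peak in any *ubp5* library, and MCM9 had 3483, 928 and 0 bp. The H3K27me3 lengths of these 3 genes in *ubp5* were unchanged at matched length.

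Other genes with H3K27me3 only in *ubp5* were AT5G36260, an aspartyl protease with 2563 and 2206 bp, and AT4G09250, a SPRY domain gene. The latter had all 2401 bp covered in both *ubp5* libraries and 0 in Col-0, although 0% of it is unique at 100 bp, so its reads cannot be placed with certainty. EDA35 had 763 and 500 bp in *ubp5* only. At matched length AT5G36260 had 2563 and 0 bp in *ubp5*, and the values of AT4G09250 and EDA35 were unchanged.

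Of the genes with H3K27me3 in the Col-0 lists alone, the 5 with the most covered bases on average are given with their H2Aub. LURP1, a gene induced in defence against an oomycete, had 2224 and 2316 bp of H3K27me3 in Col-0 but 0 in *ubp5*. Its H2Aub was 1144, 902 and 2055 bp in Col-0, with 2113, 1956 and 2122 bp in *ubp5*. PUM10, a Pumilio RNA-binding protein, had 2110 and 2017 bp of H3K27me3 in Col-0 but 0 in *ubp5*, beside H2Aub of 2035, 1970 and 1997 bp and of 1909, 645 and 1975 bp. Its relative PUM11 had 1778 and 2280 bp of H3K27me3 in Col-0 but 0 in *ubp5*, with H2Aub in all 6 libraries between 404 and 746 bp. The sugar transporter MSS1 had 1144 and 3133 bp and then 0, with H2Aub in all 6 libraries between 1144 and 3774 bp. The receptor-like kinase AT5G39020 had 1454 and 1995 bp of H3K27me3 and then 0. Its H2Aub was 1611, 2084 and 2066 bp in Col-0, followed by 1606, 0 and 1583 bp, and at matched length no *ubp5* library had an H2Aub peak on it. At matched length PUM10, PUM11 and AT5G39020 kept their H3K27me3 peak in 1 of 2 Col-0 libraries, and LURP1 and MSS1 in both.

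A peak in all 6 H2Aub libraries was found on 397 pericentromeric genes, 9.11% against 20.4% of all genes, and peaks in all 10 libraries on 156, 3.58% against 5.99%. The 748 genes marked by H3K27me3 in both genotypes are those with a peak in all 4 libraries. The longest in H2Aub after AT2G08986 were CALS5, a callose synthase of the pollen wall, with 3287, 3116 and 3587 bp in Col-0 followed by 3867, 2151 and 3911 bp in *ubp5*, and NIA2, the nitrate reductase, with 3002, 3078 and 3171 bp and 2775, 2991 and 2674 bp. The cation/H+ exchanger CHX24 had nearly its whole 2991 bp under both marks, 2769 to 2990 bp for H2Aub and 2840 to 2912 bp for H3K27me3. ABCB15, an ABC transporter, had 1354 to 3307 bp of H2Aub. The longest in H3K27me3 were GSL09, a glucan synthase-like gene, with 8705 to 9799 bp, CYCB1;5, a B-type cyclin, with 6053 to 6166 bp, PEN3, a putative triterpene synthase, with 4821 to 5578 bp, and AGL44, a MADS-box transcription factor, with 5024 to 5306 bp. PEN3 had no H2Aub in any of 6 libraries, and AGL44 between 0 and 694 bp. Among genes with both marks in all 10 libraries, SAP, a regulator of flower development, had all 4782 bp under H3K27me3 and 1421 to 2043 bp under H2Aub. The MATE transporter AT5G38030 had 4162 to 4388 bp and 1494 to 1693 bp, and ALD1, an aminotransferase of systemic immunity, 3850 bp in each library and 828 to 3609 bp.

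**Figure D5:**
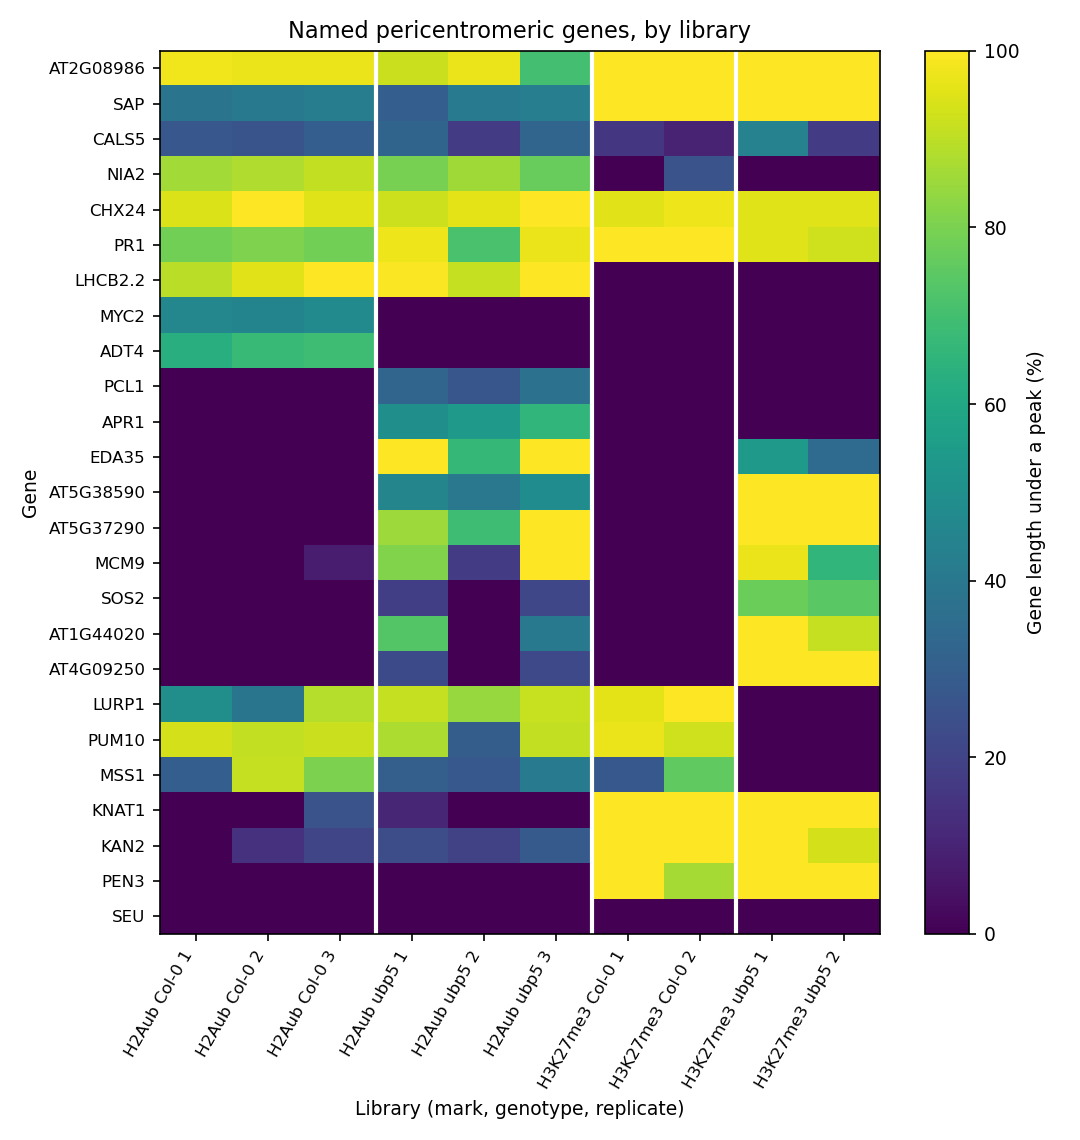
Share of gene length under a peak (colour, %) for 25 named pericentromeric genes (rows) in the 10 libraries (columns, by mark, genotype and replicate number). MYC2 and ADT4 carry H2Aub in the 3 Col-0 libraries only, EDA35, APR1 and AT5G38590 in the 3 *ubp5* libraries only, LURP1 and PUM10 carry H3K27me3 in the 2 Col-0 libraries only, and SEU carries no peak.

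A list of 36 well-known pericentromeric genes, set by name, showed how the marks fell on familiar functions. H2Aub marked 19 of them in Col-0, beside 42.5% of all genes, and 18 in *ubp5*, beside 62.3%. H3K27me3 marked 13 and 10, beside 19.7% and 19.6%, and 5 of the 36 had no peak in any library. These genes were picked for being well known, so their counts do not stand for the windows. Of the 16 transcription regulators, H3K27me3 marked 10 in Col-0 and 8 in *ubp5*, beside 19.7% and 19.6% of all genes. NAC6 and TT2 were marked in Col-0 only. At matched length NAC6 had 378 and 0 bp of H3K27me3 in Col-0 and TT2 810 and 0 bp, so neither counted as marked in either genotype. ACS11, a listed hormone gene marked only in Col-0, had no H3K27me3 peak there at matched length. KNAT1, a homeobox gene of the shoot meristem, had its whole 3461 bp under H3K27me3 in all 4 libraries, and so had MYB0, the trichome gene also called GL1, with 1818 bp, and LSH1, a gene of light-dependent growth, with 1294 bp. KAN2, which sets organ polarity, had 4808 to 5130 of 5130 bp. PDF2, a homeobox gene of the epidermis, had 3506 to 3580 of 6058 bp, and TT8, a regulator of seed coat pigments, 2850 to 4630 of 4643 bp. H2Aub over KNAT1 was 885 bp in 1 Col-0 library, 375 bp in 1 *ubp5* library and 0 in the other 4. SEU, a co-regulator of flower development, and ABF2, a factor of abscisic acid response, had no peak of either mark.

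Among the 7 housekeeping and photosynthesis genes H2Aub marked 4 in Col-0 but 5 in *ubp5*. LHCB2.2, a light-harvesting protein, had 1112 to 1239 of 1239 bp under H2Aub and no H3K27me3. RBCS2B, a small subunit of Rubisco, had 1116 to 1165 of 1165 bp, and H3K27me3 of 869 and 817 bp in Col-0 but 0 in *ubp5*. UBQ10, a polyubiquitin, had H2Aub of 0, 1541 and 1659 bp in Col-0 but 0 in *ubp5*, and the ribosomal protein gene RP1 had none. At matched length UBQ10 had no H2Aub peak in any library of either genotype. The same held for CH1, J3 and DDB1A of this group, while RBCS2B and LHCB2.2 stayed marked in both genotypes. H3K27me3 on RBCS2B was 869 and 0 bp in Col-0 at matched length. Of the 5 defence and jasmonate genes, PR1, a salicylic acid marker, carried both marks in every library, with 642 to 880 bp of H2Aub and 838 to 902 bp of H3K27me3 on 902 bp. OPR3, of jasmonate synthesis, had H2Aub of 1277, 1738 and 829 bp in Col-0, with 286, 0 and 344 bp in *ubp5*. AN3, a growth co-activator among the regulators, had 1677, 2600 and 2342 bp and then 0, 0 and 1114 bp. For both genes the covered lengths of the genotypes did not overlap. At matched length neither had a peak in any *ubp5* library, and in Col-0 OPR3 had 1277, 561 and 0 bp, which overlaps with *ubp5* at 0, and AN3 711, 2600 and 2342 bp.

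By protein family, windows and arms lay closer for H3K27me3 than for H2Aub in some groups and not in others. F-box genes, 107 in the windows, had H3K27me3 on 54.2% in Col-0, with 57.0% in *ubp5*, and 49.7% and 47.5% on the arms, whereas H2Aub marked 26.2% and 40.2% in Col-0. For the 20 cytochrome P450 genes H3K27me3 marked 50% against 44.7% and H2Aub 60% against 77.2%. The 34 receptor-like kinases had H3K27me3 on 23.5% against 16.3% and H2Aub on 32.4% against 63.4%. Pentatricopeptide repeat genes, 24 in the windows, had H3K27me3 on 4.17% against 3.11%, and H2Aub on 25.0% against 48.4%. The 43 defensin-like peptide genes departed, with H3K27me3 on 9.30% against 32.8% and H2Aub on 6.98% against 19.8%. So did the 66 transposase-derived genes, with 4.55% for each mark against 16.9% for H3K27me3 and 27.3% for H2Aub. The 27 AGAMOUS-like MADS genes had H3K27me3 on 29.6% against 53.8% and H2Aub on 37.0% against 41.9%. These family values are descriptions without a test.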

How the data were processed

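Per the methods, the authors aligned ChIP-seq reads with STAR 2.7.8a to TAIR10, left out organelle genomes and duplicates (Picard), and called broad peaks per library against input with MACS3 3.0.0. Each deposited list gives a score per peak (10 times −log10 q), a fold enrichment (ratio), and −log10 p and q. The deposited H2Aub lists started at −log10 q of 3.00 and the H3K27me3 lists at 1.01 to 1.05, so peaks with a score over 30 were kept. Read depth per list was not used here. Covered length was computed with pandas 2.3.3 and NumPy 2.4.6 on the TAIR10.1 RefSeq annotation, whose nuclear coordinates are those of TAIR10. Uniqueness is the share of a gene in 100 bp words that occur once. Libraries were compared by two-sided exact permutation or sign-flip tests, and the 12 main tests were adjusted together by the Benjamini-Hochberg method. The 20 comparisons added after the values were seen were adjusted apart from them. They cover zones, peak width, peak length in genes, pseudogene features, length classes, and H2Aub on genes with and without H3K27me3. Many of the 20 share the smallest possible p, so their adjusted values cannot be ranked against those of the 12. The code was tested on simulated data. Named genes were the longest in every library (5 per mark), up to 5 per mark and direction with a peak in every library of one genotype and none of the other, 5 that took up both marks, 5 with peaks in all 10, and 36 well-known genes. Members and lists were chosen with earlier results of these data known. Alternatives were other peak filters, matched covered length, other features, trimmed windows, unique genes, left-out libraries and a replicate block.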

Additional observations from a re-analysis of the deposited data

How the results depend on the processing

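Of 270 alternative values for 18 results, 206 were labelled the same. For tests this meant the same direction and the same side of 0.05 in the exact test, before adjustment. Only the H2Aub comparisons of windows and arms could fall under 0.05. In every other exact test the smallest possible value is 0.1 or more, so the call could not change. For counts of marked genes the label meant a count of similar size, without a test. The number of libraries and of peaks called limits every comparison, and lists without depth give no counting error. H2Aub was lower in the windows under every setting run. Leaving out any 1 library left p above 0.05, since 5 libraries cannot go lower than 0.0625, with values of −0.84 to −0.77 in length and −1.64 to −1.51 log2 odds in genes.

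The H3K27me3 difference between windows and arms reversed with windows trimmed by 1 Mb (−0.16 in length, −0.57 in genes), with pseudogene features (−0.57, −0.75) and, added after seeing the data, for coding genes under 1 kb (−0.41, −0.77). With a score over 60 it reversed in genes only (−0.061). The cause was not tested. Genotype differences near 0 changed sign. For H2Aub the length share went to −0.015 at matched length, and the pericentromere-to-arm ratio to 0.004 with a score over 60 and 0.0068 in unique genes. For H3K27me3 the length share went to 0.098 at matched length and 0.015 with pseudogene features. Its ratio went to −0.023 with all peaks, −0.0015 with a score over 60, −0.011 in coding genes and −0.00071 in unique genes. Its gene share went to −0.11 with a score over 60 and −0.0037 in coding genes, and the gene interaction to −0.006 with all peaks. Leaving out 1 library in turn, the H2Aub length share ranged from −0.002 to 0.77 and its ratio from −0.094 to 0.1. For H3K27me3 the length share ranged from −0.12 to 0.038, the ratio from −0.023 to 0.04 and the gene share from −0.092 to 0.13.

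Counts of H2Aub-marked genes moved most. In the order of *ubp5* alone, Col-0 alone and both genotypes, they were 257, 240 and 329 at matched length, 216, 45 and 308 in trimmed windows, and 346, 267 and 397 with a peak asked of every library. With a peak over 50% of the gene, 188 were only in *ubp5* and 428 in both, and with a score over 60, 561 were in both. With 1 library left out they ranged from 208 to 971, 46 to 504 and 536 to 915. Leaving out a library also changed the rule for its genotype, to both remaining libraries for H2Aub and the single remaining one for H3K27me3. H3K27me3 counts were 49, 43 and 217 in trimmed windows, 74 only in Col-0 at matched length and 86 only in *ubp5* with a peak over 50% of the gene, and 78 to 222 only in Col-0 with 1 library left out.

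Replicate numbers are shared between genotypes, but no label says that they mark a pair. Deviations of same-numbered libraries correlated at −0.09, 0.07 and 0.25 for H2Aub and 0.18 for both H3K27me3 pairs. A replicate block gave the H2Aub length share as 0.31 (exact sign-flip p = 0.75). For the H2Aub difference in genes between regions it gave −0.37 (exact sign-flip p = 0.25). The block changed no direction, and with so few libraries these genotype tests could not change a call.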
